A study of Mus musculus with 4 samples.

Results

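The 80 nuclei described here are Lamp5-like GABAergic interneurons of mouse medial prefrontal cortex, the class that includes the neurogliaform cells. They come from 22402 barcodes of single-nucleus RNA sequencing, of which 13270 were kept because they held at least 500 genes, at least 800 unique molecular identifiers (UMIs, each standing for 1 captured transcript) and at most 5% mitochondrial UMIs. Each kept nucleus received a score, the mean over Lamp5, Ndnf, Sv2c, Pde11a and Kit of the natural log of 1 plus the UMIs per 10000. The members were chosen by these measured UMI counts, as the 80 highest scores among the 1979 kept nuclei with at least 5 UMIs of Erbb4 and 0 of Vip. They were set against the 2964 other kept nuclei with at least 3 UMIs of Gad1, Gad2 and Erbb4 together, called the other inhibitory-marked nuclei or the mixed set below.

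The tissue came from C57BL/6J mice aged 9 weeks, dissected 24 hours after an injection of the psychedelic DOI (1 female and 1 male sample) or of saline (1 female and 1 male sample). All 4 samples, the saline controls included, expressed scFLARE2, a light- and calcium-gated transcription system, and TRE-mCherry-p2a-bReaChES, the red fluorescent protein and opsin it can switch on. Which promoter drove scFLARE2, and how many mice entered a sample, are not given in the sources used here. Barcode endings separate 4 libraries, but no label ties an ending to a sample, so the matrix counts as 1 sample and treatment and sex were not compared.

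Cortical interneurons use GABA as their transmitter and fall into classes named for marker genes such as Pvalb, Sst, Vip and Lamp5. Neurogliaform cells of the Lamp5 class release GABA diffusely from dense axons, acting on extrasynaptic GABA-A receptors and on the slower GABA-B receptors of many neighbours. They are abundant in the outermost cortical layer, where Ndnf and the secreted protein reelin mark many of them, and other members carry neuropeptide Y.

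The members spread over all 4 libraries, with 22, 31, 8 and 19 nuclei in libraries 1 to 4. These made up 2.17%, 3.76%, 1.90% and 2.42% of the inhibitory-marked nuclei, with exact 95% binomial intervals of 1.37% to 3.27%, 2.57% to 5.30%, 0.822% to 3.70% and 1.46% to 3.75% that cover counting error only. The intervals of all 4 libraries overlap. The members held a median of 8678.5 UMIs (2920 to 26794) and 3412.5 genes, against 6180 UMIs in the other inhibitory-marked nuclei. The filters had removed 1418 of 5721, 1724 of 5278, 1480 of 3076 and 4510 of 8327 barcodes of libraries 1 to 4. In all, 18 of 13252 barcode sequences of kept nuclei occurred in more than 1 library, and 1 member shared its sequence with a nucleus of another library. No member had a Scrublet doublet score above 0.25, against 289 of the 13270 kept nuclei, and none was removed.

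The values that chose the members are a description only. Kit had a UMI in 79 of the 80 nuclei, Sv2c in 78, Pde11a in 69, Lamp5 in 55 and Ndnf in 38. All 5 of these markers were seen in 21 members, 4 in 37 and 3 in 22. The score ran from 1.00 to 2.00 with a median of 1.37. The boundary fell in a continuous range, since the last member scored 1.003 with 10472 UMIs and the next nucleus 0.986 with 6797 UMIs. Gad1 was found in 76 members and Gad2 in 79, so both genes of GABA synthesis were nearly always present.

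Genes outside the rule placed the members beside the Vip class and away from the Pvalb and Sst classes. For that comparison the 80 highest-scoring inhibitory nuclei were taken for Pvalb and for Sst, and 66 for Vip, where fewer than 80 qualified. The deepest Vip-scored nucleus, in library 2, held 109478 of the 724608 UMIs of that set (median 8617). Sums over the Vip set therefore weigh that nucleus more than any other. Levels are CPM, a gene's UMIs summed over a set per 1000000 UMIs of that set. To be called, a gene needed 100 or more UMIs over both sets, a CPM ratio of 2 or above (higher) or 0.5 or below (lower), and 1 direction throughout the 4 libraries. This is a rule of size and not a test, and bracketed log2 intervals are exact 95% intervals of counting error.

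Adarb2, an RNA-editing family gene used as a marker of interneurons from the caudal ganglionic eminence, had a UMI in 80 of 80 members and reached 5964 CPM. Pvalb-scored nuclei had 6.38 CPM, Sst-scored nuclei 2.28 and Vip-scored nuclei 14005, so the members were called higher than the Pvalb and Sst sets and lower than the Vip set. Prox1, a homeobox factor of the same lineage, was at 140, 174, 232 and 120 CPM in the members of libraries 1 to 4. Vip-scored nuclei held 127 CPM of Prox1, Pvalb-scored nuclei 1.06, and Sst-scored nuclei 0 UMIs. Member and Vip values overlapped across libraries, and neither overlapped with Pvalb or Sst. Prox1 had a UMI in 66.3% of members (median 8678.5 UMIs) and in 0.643% of excitatory-marked nuclei (median 12089 UMIs), a set that should lack interneuron factors. Nuclei with oligodendrocyte markers (median 2917 UMIs) held it in 27.4%. Prox1os overlaps Prox1, and reads of the pair cannot be told apart here.

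Factors of the medial ganglionic eminence were scarce. Lhx6, which specifies Pvalb and Sst cells, had 0 UMIs in the 80 members. By a limit of 3 counts, not an exact binomial bound, up to 3.75% of nuclei could hold a UMI of Lhx6. Its level was 57.4 CPM in Pvalb-scored, 76.5 in Sst-scored and 0 in Vip-scored nuclei, so with a floor of 3 UMIs over the 80 members it was at least 14.5-fold lower than in the Pvalb set and at least 19.3-fold lower than in the Sst set. Both comparisons had under 100 UMIs of Lhx6 and so carried no call. Sox6, another factor of that lineage, was at 17.4, 45.1, 0 and 10.4 CPM in the members by library. In the Pvalb set Sox6 lay between 804 and 910 CPM and in the Sst set between 954 and 1383, with no overlap with the members. Satb1, which acts in Sst and Pvalb maturation, was at 7.93 CPM in the members against 264 and 354 in those sets.

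**Figure D1:**
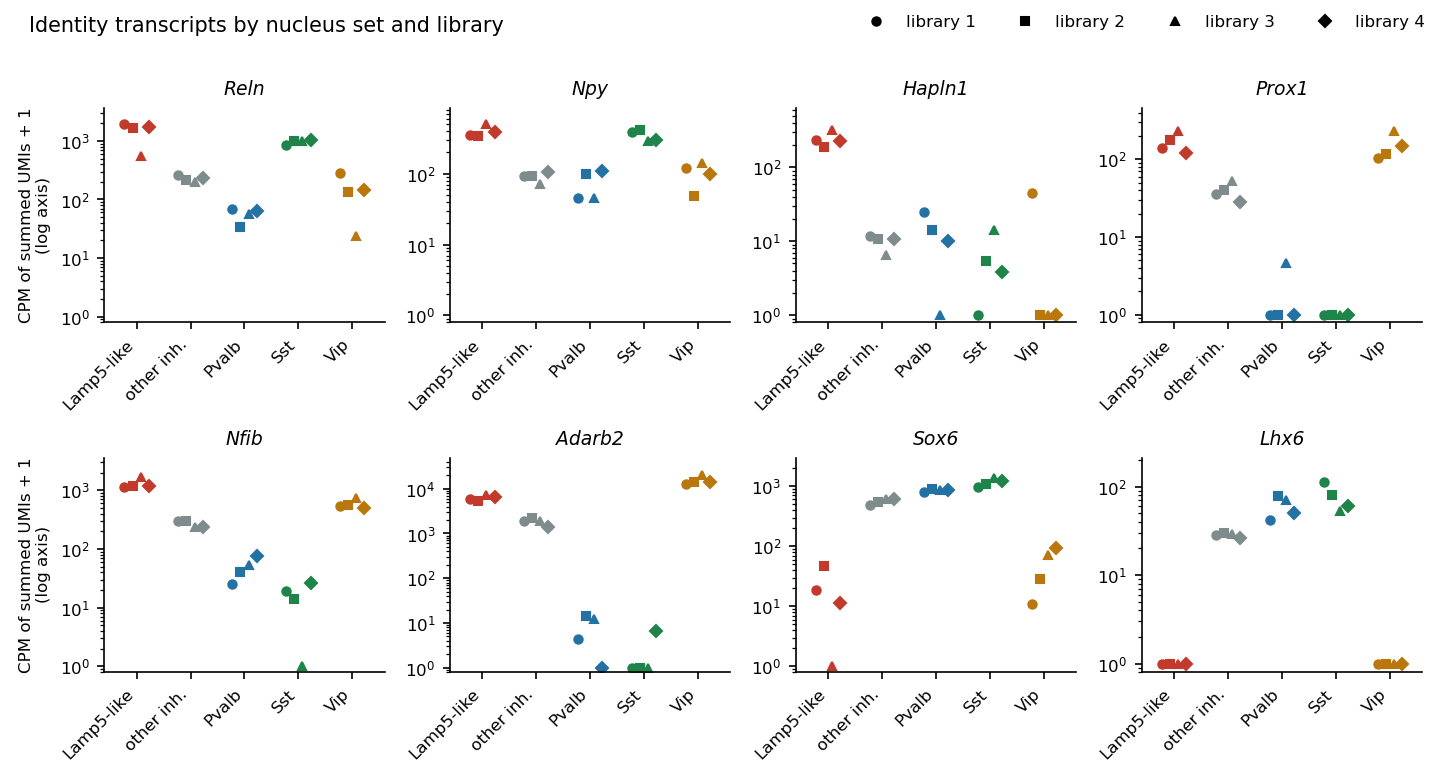
CPM of summed UMIs plus 1 (log axis) for 8 identity genes in the Lamp5-like members, the other inhibitory-marked nuclei and the Pvalb-, Sst- and Vip-scored nuclei, with 1 point for each of the 4 libraries. Prox1, Nfib and Adarb2 are high in members and Vip nuclei, Npy is high in members and Sst nuclei, Hapln1 is highest in members (190 to 318 CPM), and Lhx6 is at 0 in members and Vip nuclei.

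Over 32 transcription factors of interneuron lineages, 30 could be tested against the other inhibitory-marked nuclei, and 12 were called higher and 8 lower. Over all 12609 testable genes, 3.45% were called higher and 11.7% lower. The list median was 0.65 on the log2 scale against -0.09 for all genes. Nfib, a nuclear factor I gene, had 1208 CPM in members, 270 in the other inhibitory-marked nuclei, 547 in the Vip set, 46.8 in the Pvalb set and 18.3 in the Sst set. Excitatory-marked nuclei held 468 CPM of Nfib and nuclei with oligodendrocyte markers 406, so it was not confined to interneurons. Tox2, an HMG-box factor, was at 198 CPM in members and at 6.90 in Vip-scored nuclei, a log2 ratio of 4.84 (3.59 to 6.49). Zfp536, Tox2 and Nfib were called higher against each of the 3 classes. Id2, an inhibitor of bHLH factors used as a neurogliaform marker, was called higher against the mixed set at 33.0 against 12.9 CPM. The Pvalb, Sst and Vip sets held 6.38, 4.57 and 19.3 CPM of Id2. Its call was lost at the limit of 1% mitochondrial UMIs, with equally weighted nuclei and with nuclei thinned to 1500 UMIs. At that 1% limit, here and below, the 80 highest scores were taken again, and only 24 of those nuclei were members. Npas3, a bHLH-PAS factor, was called lower against every set, at 358 CPM against 761 (Pvalb), 2305 (Sst) and 2549 (Vip). With 120 members its call against the mixed set was lost (log2 ratio -0.81), and at the limit of 1% mitochondrial UMIs the ratio was 0.38.

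The mix of the comparison nuclei bears on the calls. Summed over 4 oligodendrocyte markers (Mog, Mag, Opalin and Mobp), the other inhibitory-marked nuclei held 434 CPM (339 to 717 by library), the members 29.1 (12.2 to 67.6, with Opalin at 0 UMIs) and the Pvalb-, Sst- and Vip-scored sets 27.6, 21.7 and 35.9. Summed excitatory markers reached 392 CPM in the mixed set and 202 in the members, where none of the 5 was at 0 and the libraries ranged from 61.1 to 306. The Pvalb-, Sst- and Vip-scored sets held 100, 161 and 417 CPM of them. Summed markers of microglia (137 against 112 CPM) and astrocytes (96.5 against 90.1 CPM) were at like levels in both sets. Summed over 5 markers of striatal medium spiny neurons (Ppp1r1b, Drd1, Drd2, Adora2a and Rgs9), the mixed set held 132 CPM (43.0 to 214 by library), the members 17.2 (0 to 41.6, with Adora2a at 0 UMIs) and the Pvalb-, Sst- and Vip-scored sets 13.8, 123 and 49.7. Genes of the rule and predicted, mitochondrial and ribosomal names were left out when genes were ranked by ratio. Among the 15 smallest ratios, of genes with at least 100 expected member UMIs, stood St18, Gjc3, Prr5l and Bcas1, all known from oligodendrocytes. St18 had 0 UMIs in the members against 397 CPM, yet only 1.06, 1.14 and 8.28 CPM in the 3 scored classes. Gjc3 had 1 UMI in the members, a log2 ratio of -6.72 (-12.02 to -4.24). Against the 453 of these nuclei with at least 5 UMIs of Gad1 and Gad2 together and at least 5 of Erbb4, 284 genes were called higher and 577 lower. Of the genes named here, Adarb2 (log2 ratio 0.71), Pde4b (-0.29), Penk (-0.16), Sst (-1.31), Slc38a2 (-0.75), Bcas1 (-0.46), Gjc3 (-2.20), Prr5l (-1.62), Tac2 (-3.18), Id2 (1.53), Htr1b (2.05) and Slc6a11 (2.14) then had no call, while Vcan (3.16) and Gria1 (-1.20) gained one. How far oligodendrocyte RNA set the lower calls was not tested. Many genes below are also given against the scored classes. Slc6a11, Slc38a2, Htr1b, Penk, Tac1, Sst, Cck, Slc32a1, Calb1, Pvalb, Gjd2, the immediate early genes and others are given against the mixed set alone.

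Reln, the extracellular glycoprotein reelin, Npy, the peptide neuropeptide Y, and Hapln1, a link protein that binds hyaluronan and proteoglycans, were all called higher against the mixed set. Reln was at 1954, 1678, 550 and 1694 CPM in the members of libraries 1 to 4, and between 197 and 263 in the other inhibitory-marked nuclei. The groups did not overlap, and the lowest value came from library 3, which has 8 members. Against Sst-scored nuclei, which reached 982 CPM, Reln was not called at a log2 ratio of 0.73 (0.60 to 0.85).

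Npy was at 355, 345, 501 and 390 CPM in the members and between 70.1 and 104 in the other inhibitory-marked nuclei, a log2 ratio of 2.03 (1.84 to 2.21). Its level in Sst-scored nuclei, 349 CPM, was close to that of the members, 375 CPM, with a log2 ratio of 0.10 (-0.13 to 0.34). A UMI of Npy was found in 76.3% of members and in 32.7% of excitatory-marked nuclei. Genes of the rule and predicted, mitochondrial or ribosomal names were not ranked. Among the others with at least 100 member UMIs, Hapln1 had the largest ratio, at 223 against 9.44 CPM. Its log2 value was 4.56 (4.27 to 4.86). By library the members lay between 190 and 318 CPM, and every library of every other set lay at or below 44.3. Hapln1 had a UMI in 59 of 80 members and in 1.90% of excitatory-marked nuclei.

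Pnoc, the precursor of nociceptin, was the third peptide gene called higher, at 47.6 against 6.02 CPM. The class comparisons could not test it, with 5.32, 3.42 and 20.7 CPM in the Pvalb, Sst and Vip sets. Of 13 testable peptide and secreted-marker genes, 3 were called higher and 7 lower, beside 3.45% and 11.7% of all genes. The lower ones included Sst at 63.4 against 170 CPM, Tac1, the substance P precursor, at 11.9 against 36.6 CPM, and Penk, the enkephalin precursor, at 10.6 against 28.7 CPM. The part of striatal neurons, whose markers summed to 132 CPM in the mixed set, in the values of Penk and Tac1 was not tested. Cck, cholecystokinin, was not called, at 186 against 225 CPM. Of the other markers listed for Vip cells, Calb2, Crispld2 and Npy2r had 0 UMIs and Tac2 had 1.

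Of 26 matrix genes, 19 could be tested, with 4 called higher and 8 lower, beside 3.45% and 11.7% of all genes. Adamts17, a secreted metalloprotease, was at 507 CPM against 75.5, and at 149, 38.8 and 64.9 in the Pvalb, Sst and Vip sets, and was called against each. Vcan, the proteoglycan versican, was at 153 CPM and was called higher against the 3 classes (3.19, 10.3 and 27.6 CPM) but not against the mixed set, which held 107 CPM. Oligodendrocyte precursors also express Vcan, and the other 4 precursor markers summed to 11 of the 127 UMIs of that list in the members. Tnr, tenascin-R, was called lower, at 178 against 902 CPM, and against Pvalb (634) and Sst (370) nuclei.

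With predicted, mitochondrial and ribosomal names left out, the 15 called genes with the largest ratio among those with at least 100 member UMIs were Hapln1, Crispld1, Egfr, Egfros, Hcrtr2, Fgf13, Nyap2, Pld5, Homer2, Sox1ot, Cacna2d1, Pip5k1b, Reln, Trpc5 and Adamts17. All 15 were called higher against Pvalb-scored nuclei, 14 against Sst-scored nuclei (all but Reln) and 14 against Vip-scored nuclei (all but Egfr). Across all genes, 8.64%, 8.51% and 6.81% were called higher in those comparisons, and 9.56%, 8% and 5.89% lower.

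Egfr encodes the epidermal growth factor receptor and lies on GRCm38 chromosome 11 from 16752203 to 16918158, where the antisense RNA Egfros overlaps it. It was at 704, 557, 550 and 681 CPM in the members and between 33.8 and 43.1 in the other inhibitory-marked nuclei. A UMI of Egfr was seen in 97.5% of members, 60.6% of Vip-scored nuclei, 1 of 80 Pvalb-scored and 1 of 80 Sst-scored nuclei, and 1.41% of excitatory-marked nuclei. Vip-scored nuclei had 269 CPM, with a log2 ratio of 1.21 (0.96 to 1.46) that was not called because library 3 went the other way, with 550 CPM in its 8 members against 928 in its 4 Vip nuclei. Egfros moved with it, at 201 against 12.7 CPM. Counting by strand is not stated, so reads of Egfr and Egfros cannot be told apart here.

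Fgf13, an intracellular partner of sodium channels, reached 5206, 4303, 3898 and 4516 CPM in the members and 327 to 357 in the other inhibitory-marked nuclei. The scored classes held 486, 251 and 675 CPM. Its relative Fgf12 went the other way, at 588 CPM against 2172, 4262, 2200 and 1704 in the mixed, Pvalb, Sst and Vip sets. Cacna2d1, an auxiliary calcium channel subunit that gabapentin binds, was at 2265 CPM against 298, 21.3, 34.2 and 455, while Cacna2d2 was at 6.61 CPM against 300 in the Pvalb and 130 in the Sst set. Both pairs of related genes were thus called in opposite directions against Pvalb and Sst nuclei.

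Crispld1, a secreted cysteine-rich protein gene, was at 223 against 13.4 CPM, and it overlaps the non-coding genes Gm16070 and Gm28153. Nyap2, a phosphoinositide 3-kinase adaptor, was at 2117 against 185 CPM. Pip5k1b, a phosphoinositide kinase, was at 662 against 88.7 CPM. Homer2, a postsynaptic scaffold of metabotropic glutamate receptors, was at 330 against 42.2 CPM. In each of the 4 libraries these genes were higher in the members. Pld5, Sox1ot and Trpc5 overlap the annotated genes Rbm8a2, Sox1 and Trpc5os, so their reads are uncertain in the same way.

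Of 2443 genes testable against all 3 classes, 85 (3.48%) were called higher and 44 (1.8%) lower in each. Chosen after their values were seen, the uncharacterised transcript 6530411M01Rik stood furthest from its nearest class, at 217 CPM against 7.44, 0 and 0. Of those lower in all 3, Ano4, a membrane protein of the anoctamin family, stood furthest from its nearest class, at 10.6 CPM against 453, 199 and 422.

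**Figure D2:**
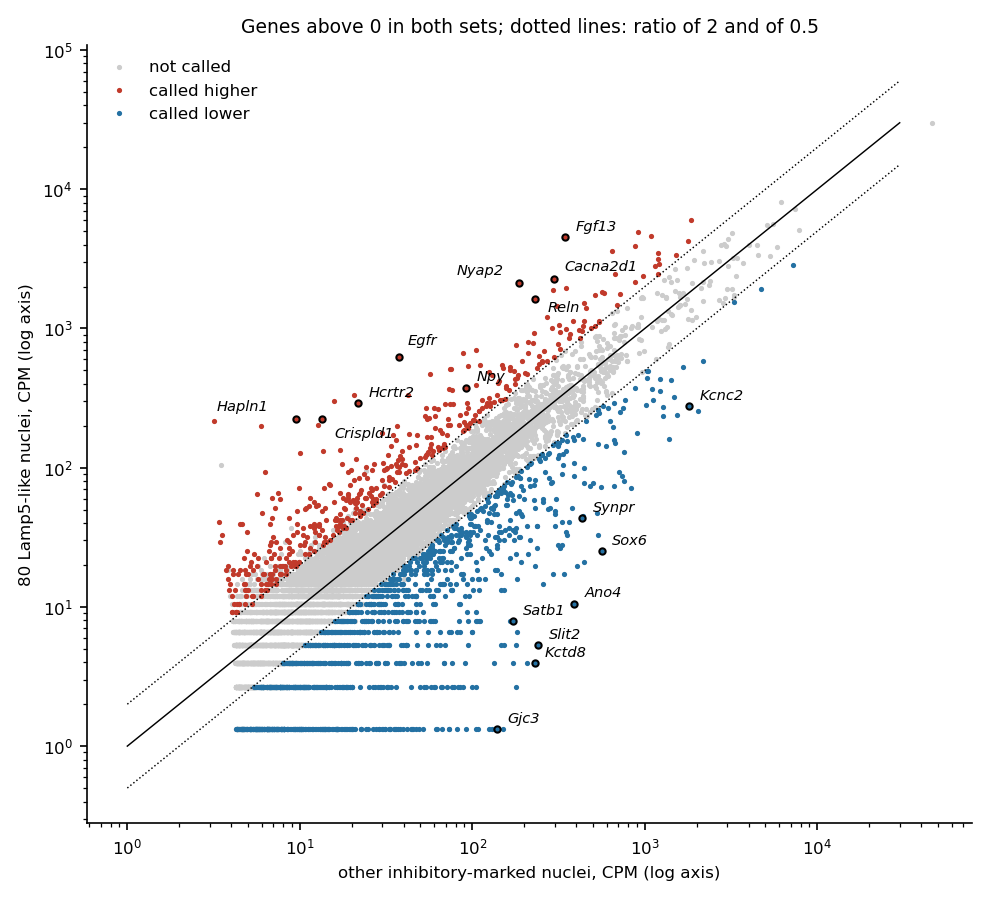
CPM in the 80 Lamp5-like nuclei (vertical, log axis) against CPM in the 2964 other inhibitory-marked nuclei (horizontal, log axis), 1 point for each testable gene above 0 in both sets. Genes called higher (red) include Fgf13, Cacna2d1, Reln, Egfr and Hapln1, and genes called lower (blue) include Sox6, Satb1, Slit2 and the oligodendrocyte gene Gjc3.

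Serotonin receptors were tested as a list because DOI acts on this family. Of 8 testable genes, Htr2a, Htr1f and Htr1b were called higher and Htr2c lower, beside 3.45% and 11.7% of all genes. Htr2a encodes the Gq-coupled receptor through which psychedelics act, and it lay at 69.8, 142, 159 and 93.5 CPM in the members. The other inhibitory-marked nuclei lay between 33.4 and 43.6 CPM without overlap. At the limit of 1% mitochondrial UMIs the log2 ratio against them was 0.34, without a call. Members were also called higher than Sst-scored (16.0 CPM) and Vip-scored (29.0 CPM) nuclei, with log2 ratios of 2.85 (2.02 to 3.78) and 1.99 (1.29 to 2.75). Pvalb-scored nuclei held 70.2 CPM, the log2 ratio was 0.71 (0.23 to 1.20), under the ratio of 2, so that pair was not called. A UMI of Htr2a was found in 56.3% of members (median 8678.5 UMIs), 52.5% of Pvalb-scored nuclei (median 11159.5) and 29.0% of excitatory-marked nuclei (median 12089), which express this receptor too.

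Htr1f, a Gi-coupled receptor, was at 372, 396, 819 and 270 CPM in the members and between 130 and 157 in the other inhibitory-marked nuclei. It was called higher against all 3 classes, which held 140, 95.9 and 190 CPM. Htr1b, also Gi-coupled, was at 17.2 against 6.11 CPM, from 13 member UMIs, a log2 ratio of 1.49 (0.55 to 2.31). Htr2c, like Htr2a a Gq-coupled receptor, was called lower at 48.9 against 115 CPM, and Vip-scored nuclei held 317 CPM. The member level came mostly from library 2, with 96.6 CPM against 17.4, 12.2 and 15.6 in libraries 1, 3 and 4. Without library 1 the call against the mixed set was lost (log2 ratio -0.88), and without library 2 the ratio was -2.74. It was also lost with 120 members (-0.81), equally weighted nuclei (-0.93) and nuclei thinned to 1500 UMIs (-0.07), and at the limit of 1% mitochondrial UMIs the ratio was 1.02. Htr3a, the ion channel receptor that marks the wider interneuron lineage, had 0 UMIs in 80 members. The mixed set held 2.04 CPM, less than the 3.96 CPM that 3 UMIs give in the members, so no ratio was made.

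Among 21 testable genes of Gq signalling, the cation channel Trpc5 was called higher at 507 CPM against 74.2, and at 13.8, 59.4 and 134 in the 3 classes. Its relative Trpc4 had 3 UMIs in the members, at 3.96 CPM against 134, 255, 90.2 and 218, with a log2 ratio against the mixed set of -5.08 (-7.36 to -3.53). Grk5, a kinase that desensitises receptors, was higher against every set, at 270 CPM against 59.7 to 77.3. The core genes Gnaq, Plcb1 and Prkce were not called against any set, with log2 ratios against the mixed set of 0.11, 0.30 and 0.04.

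Hcrtr2, a receptor for the arousal peptide orexin, was at 289 CPM against 21.7, and by class 0 UMIs (Pvalb), 16.0 (Sst) and 91.1 CPM (Vip). Against the Pvalb set, with a floor of 3 UMIs over 80 nuclei, it was at least 90.7-fold higher. It had a UMI in 77.5% of members and 9.24% of excitatory-marked nuclei. Adra1a, an alpha-adrenergic receptor, was at 548 CPM and was called higher against the mixed set (111) and the 3 classes (271, 135 and 182). Chrna7, a nicotinic receptor subunit, was at 176 CPM, called higher against Pvalb (21.3) and Sst (29.7) nuclei but not against Vip nuclei (188). Oprm1, the mu opioid receptor, was at 214 CPM, called higher against the mixed (89.3), Pvalb (9.57) and Vip (82.8) sets but not against Sst nuclei. Its call against the mixed set was lost with 60 members, at the limit of 1% mitochondrial UMIs and with thinned nuclei. Oprd1, the delta opioid receptor, had 0 UMIs in the members against 139 CPM in Pvalb nuclei, at least 35.1-fold lower. The muscarinic receptor Chrm2 was called lower, at 9.25 CPM against 92.9 in the mixed and 338 in the Sst set.

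**Figure D3:**
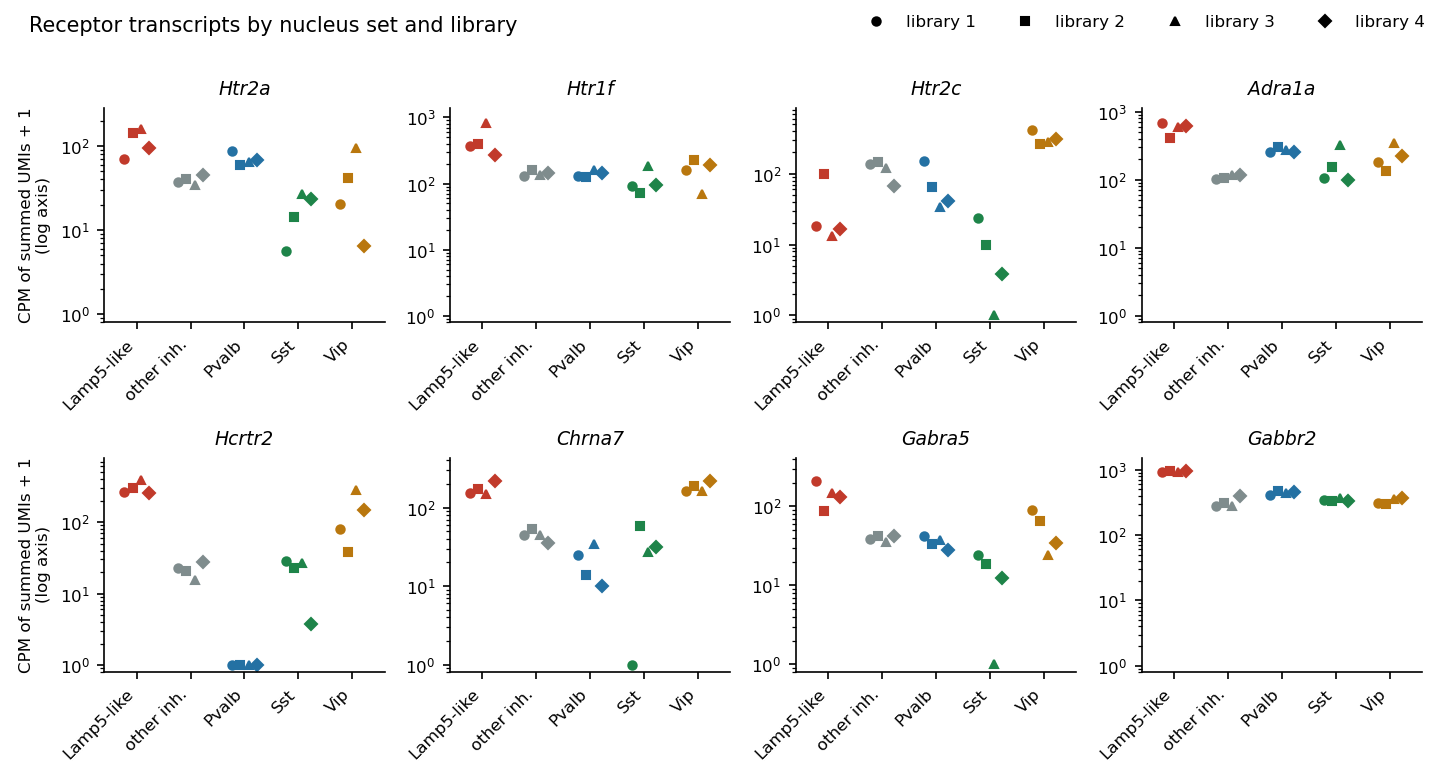
CPM of summed UMIs plus 1 (log axis) for 8 receptor genes by set, with 1 point for each of the 4 libraries. Htr2a in the members overlaps the Pvalb set and lies above the mixed set, Htr2c is highest in the Vip set, and Gabbr2 in the members (917 to 951 CPM) lies above every other set.

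The GABA system was represented by receptor and transporter genes. Of 14 testable GABA receptor genes, 5 were called higher and 1 lower against the mixed set, beside 3.45% and 11.7% of all genes. The list median was 0.60 against -0.09 for all genes. Gabbr2, a GABA-B receptor subunit, lay between 917 and 951 CPM in all 4 libraries of the members and was called higher against all sets (320, 436, 338 and 322 CPM). Its partner Gabbr1 was called against none, at 135 CPM in members and 95.7 to 153 elsewhere. Gabrb2 (1055 CPM) and Gabra5 (132 CPM), subunits of GABA-A receptors, were also called higher against every set, with 114 to 487 CPM for Gabrb2 and 14.8 to 60.7 CPM for Gabra5. Gabra5 reads are uncertain, since counting by strand is not stated. Gabrd, the delta subunit linked to tonic inhibition in neurogliaform cells, was not called: 41.0 CPM in the members, 28.5 in the mixed set and 73.4 in Pvalb nuclei.

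Slc6a11, a GABA transporter usually described in astrocytes, was called higher at 39.6 against 12.1 CPM from 30 UMIs. Slc32a1, the vesicular GABA transporter, was not called, at 30.4 against 27.6 CPM. Slc38a2, a glutamine transporter, was called lower at 56.8 against 123 CPM.

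Electrical coupling genes gave little signal. Only 3 of 8 gap junction and pannexin genes reached 100 UMIs over both sets, and none of the 3 was called. Gjd2, which encodes the neuronal connexin, had 5 UMIs in the 80 members, at 6.61 CPM, and 51 UMIs in the mixed set, at 2.21 CPM. At this depth a difference in Gjd2 was not detectable.

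Of 16 testable genes of nitric oxide and cyclic GMP, 0 were called higher and 9 lower against the mixed set. Their median was -1.16, and of all genes 3.45% were called higher and 11.7% lower. Nos1, neuronal nitric oxide synthase, was not called against the mixed set at 59.5 against 31.8 CPM, and was called lower than in Sst nuclei (273 CPM), which include its strongest expressers in cortex. Pde1c, a calcium-dependent phosphodiesterase, was at 5.29 CPM against 153, with 196 in Sst and 163 in Vip nuclei but 6.38 in Pvalb nuclei. Against Pvalb nuclei 1 of 8 testable genes was called lower and 1 higher. Against Sst nuclei 5 of 8 were lower and 1 higher, and against Vip nuclei 2 of 7 and 0. Across all genes 9.56%, 8% and 5.89% were lower in those comparisons, and 8.64%, 8.51% and 6.81% higher. Of 15 cyclic AMP enzymes, 0 were called higher and 7 lower against the mixed set, where 11.7% of all genes were lower. Against Pvalb, Sst and Vip nuclei, 10 of them were testable, with 2, 2 and 1 called higher and 0, 2 and 3 lower. Pde4b, a cyclic AMP phosphodiesterase, was lower than in the mixed set (241 against 1531 CPM) and higher than in Pvalb (34.0) and Sst (118) nuclei. Vip nuclei (613 CPM) were above the members, and nuclei with oligodendrocyte markers held 3316 CPM.

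Of 22 testable glutamate receptor genes, 2 were called higher and 7 lower against the mixed set, beside 3.45% and 11.7% of all genes. The list median was -0.13 against -0.09 for all genes on the log2 scale. Grin2a, an NMDA receptor subunit, was at 4013, 3778, 5023 and 3674 CPM in the members and between 745 and 980 in the mixed set. It was called higher against all 3 classes (854, 1512 and 1112 CPM), while Grin2b, its relative, was called against none at 1339 CPM. Among metabotropic receptors, Grm7 was called lower at 321 CPM against 2364 in Sst and 1887 in Vip nuclei. Grm3 was called lower against every set, at 51.5 CPM against 378, 237, 143 and 121. Grm5, in contrast, was at 2724 CPM and was called higher against Vip nuclei (1301 CPM) only, with the other differences under a ratio of 2. Gria1, an AMPA receptor subunit, was called lower against Pvalb (1867 CPM) and Sst (2613 CPM) nuclei at 777 CPM.

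Potassium channels included 2 genes called higher and 9 lower of 42 testable against the mixed set, beside 3.45% and 11.7% of all genes. Kcnc2, a fast-repolarising channel of fast-spiking cells, was at 337, 322, 171 and 192 CPM in the members against 4002 to 5030 in Pvalb and 1961 to 2322 in Sst nuclei, with no overlap. Kcnn2, a calcium-activated channel, was at 920 CPM, called higher against the mixed (227), Pvalb (179) and Sst (98.2) sets but not against Vip nuclei (522). Kcnq3 was called lower against the mixed, Pvalb and Sst sets, at 267 CPM against 744, 947 and 856, whereas Kcnq5, of the same family, was called higher against Pvalb (759) and Sst (166) nuclei at 2212 CPM. Scn9a, a sodium channel, was at 15.9 CPM against 657 in Pvalb nuclei.

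Adhesion genes were more often lower than higher. Of 45 testable, 20 were called lower and 3 higher against the mixed set, beside 11.7% and 3.45% of all genes. The median was -0.87 on the log2 scale against -0.09 for all genes. Against Pvalb, Sst and Vip nuclei 17 of 36, 18 of 37 and 12 of 35 were lower and 3, 5 and 3 higher. All genes had medians of 0.01, -0.02 and 0.06 there, with 9.56%, 8% and 5.89% lower and 8.64%, 8.51% and 6.81% higher. Pcdh7, a protocadherin, was at 71.4 CPM against 836, 616, 1261 and 811. Cntnap5a, of the contactin-associated family, was at 80.6 CPM against 754, 1396, 1197 and 389. Nrxn3, a presynaptic neurexin, was at 2874 CPM against 7220, 6318, 11728 and 12874. Its call against the mixed set was lost with 120 members (log2 ratio -0.86), and the ratio was 0.18 at the limit of 1% mitochondrial UMIs. Alk, a receptor tyrosine kinase, stood against this direction at 1722, 2023, 2407 and 1606 CPM by library, called higher against the mixed set (293) and all 3 classes (603, 679 and 152).

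Guidance genes went both ways, with 8 higher and 10 lower of 33, beside 3.45% and 11.7% of all genes. The netrin receptor Unc5c was at 3582 CPM, called higher against the mixed (643), Pvalb (364), Sst (413) and Vip (613) sets. Sema5a, a transmembrane semaphorin, was at 696 CPM against 105, 108, 19.4 and 145. Slit2, a secreted repellent, had 4 UMIs, at 5.29 CPM against 241 in the mixed set and 660 in Pvalb nuclei. Slit3 was at 41.0 CPM and was called lower against the mixed (331), Pvalb (256) and Sst (112) sets.

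Of 33 testable genes of the release machinery, 3 were called higher and 7 lower against the mixed set, beside 3.45% and 11.7% of all genes, with a list median of -0.20 on the log2 scale. Rims1, a scaffold of the presynaptic active zone, was at 4508, 4554, 4754 and 4744 CPM in the members and was called higher against the mixed (1081) and all class sets (1169, 1476 and 1423). Synpr, a synaptic vesicle protein, was at 43.6 CPM against 432, and against 1419 in Sst and 1170 in Vip nuclei, and was not testable against Pvalb nuclei. Stxbp6, a SNARE-binding protein, had 3 UMIs, with a log2 ratio of -5.44 (-7.72 to -3.89). Unc13c, a priming factor, had 0 UMIs and was at least 101-fold lower than in Sst nuclei (401 CPM). Syt1, Snap25 and Vamp2, core genes of vesicle fusion, were called against no set.

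**Figure D4:**
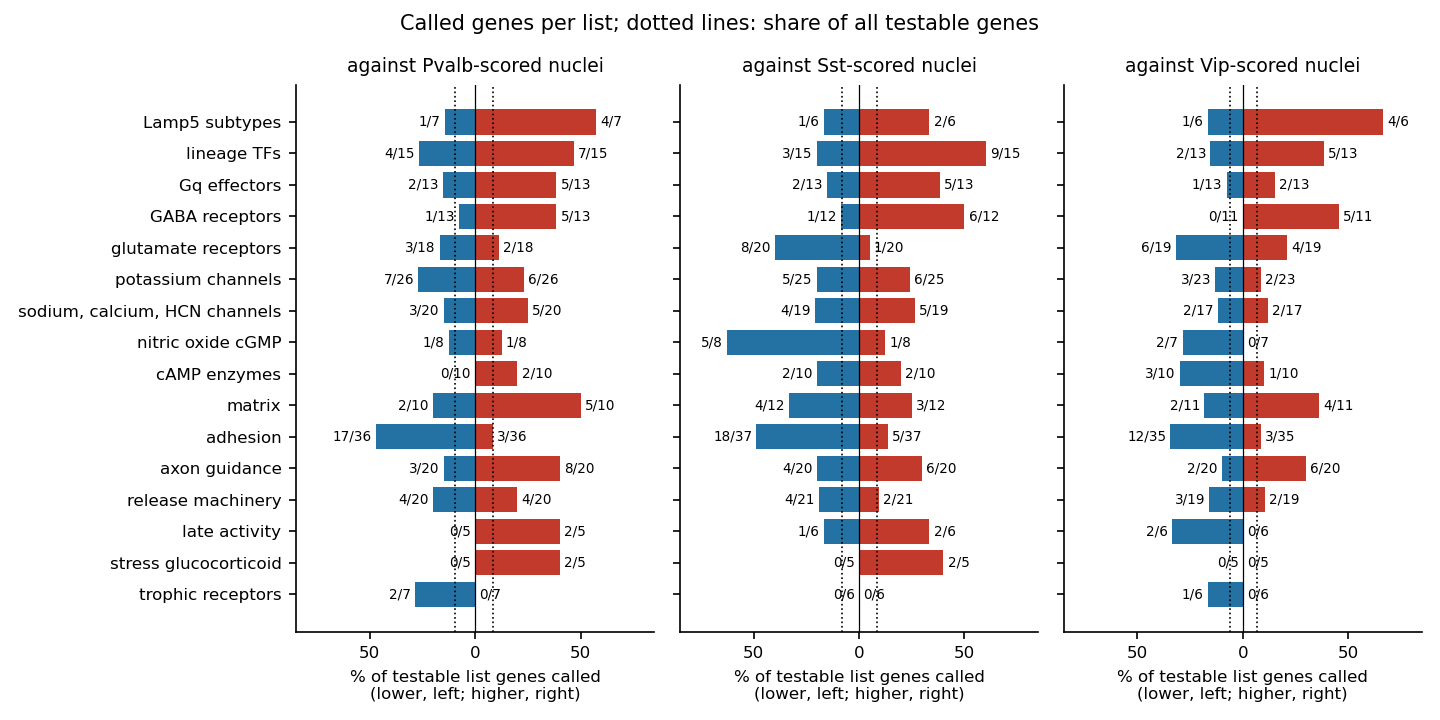
Share of testable genes of each list called higher (red, right) and lower (blue, left) in the Lamp5-like nuclei against the Pvalb-, Sst- and Vip-scored nuclei, with counts at the bars and dotted lines at the share of all testable genes. Lists with under 5 testable genes in any comparison are left out, adhesion genes are lower in 17 of 36, 18 of 37 and 12 of 35, and GABA receptor genes higher in 5 of 13, 6 of 12 and 5 of 11.

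Nrg2, a ligand of the ErbB4 receptor that the rule used, was at 330 CPM, called higher against the mixed set (138) and the 3 classes (147, 130 and 141). Igf1, insulin-like growth factor 1, was at 235 CPM, higher than in the mixed (53.1), Pvalb (5.32) and Sst (70.8) sets and below Vip nuclei (364) without a call. Necab1, a neuronal calcium-binding gene, was at 305 CPM against 114, 73.4 and 10.3 in the mixed, Pvalb and Sst sets. Calb1, calbindin, was at 7.93 CPM against 60.3, and Pvalb, parvalbumin, at 3.96 against 17.4.

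Immediate early genes mark recent firing. Of 18 testable, 0 were called higher and 5 lower in the members against the mixed set, beside 3.45% and 11.7% of all genes. Fos was at 13.2 against 11.3 CPM, from 10 UMIs, and Npas4 at 6.61 against 22.3 CPM without a call. No gene of that list reached 100 UMIs in the class comparisons. These values pool DOI and saline nuclei.

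The TREmcherry reporter transcript had a UMI in 11 of 80 members, 13.8% with an exact interval of 7.07% to 23.3%. The shares were 7.02% of the other inhibitory-marked nuclei (median 6180 UMIs), 10.2% of excitatory-marked nuclei (12089 UMIs) and 1.37% of nuclei with oligodendrocyte markers (2917 UMIs). After thinning every nucleus to 1500 UMIs, 3 of 80 members and 2.14% of the other inhibitory-marked nuclei kept a reporter UMI. By library 2 of 22, 3 of 31, 0 of 8 and 6 of 19 members had one, and without library 4 the share was 8.20%. That interval overlaps the intervals of the mixed set and of the excitatory-marked nuclei. The transcript of the activator tTA was seen in 4 of 80 members.

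Levels of other transcripts differed between members with and without a UMI of Ndnf, a secreted neuron-derived factor. Ndnf was part of the score, so the members without it reached the top 80 through the other score genes: Pde11a was at 448 CPM with Ndnf and 959 without, and Sv2c at 451 and 791. The values below are a description of these nuclei with no test. The 38 nuclei with a Ndnf UMI had a median of 8628 UMIs and the 42 without had 8874, and they numbered 9, 17, 2 and 10 against 13, 14, 6 and 9 in libraries 1 to 4. Reln had a UMI in 38 of 38 nuclei with Ndnf and in 13 of 42 without. Npy went the other way, in 21 of 38 with Ndnf and in 40 of 42 without.

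The level of Reln was 4617, 2681, 2078 and 3106 CPM in nuclei with Ndnf by library and 98.7, 292, 32.7 and 336 CPM in those without. The sides did not overlap, and the log2 ratio was 3.88 (3.56 to 4.22). Npy was at 70.8, 133, 48.3 and 148 CPM with Ndnf and at 553, 637, 654 and 622 CPM without, again with no overlap, at a log2 ratio of -2.35 (-2.85 to -1.88). Combined, 17 members had Ndnf and Reln without Npy, 21 had all 3, 28 had Npy alone, and 12 had Reln and Npy without Ndnf. Of the remaining 2 members 1 had Reln alone and 1 had none, and no member had Ndnf without Reln.

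**Figure D5:**
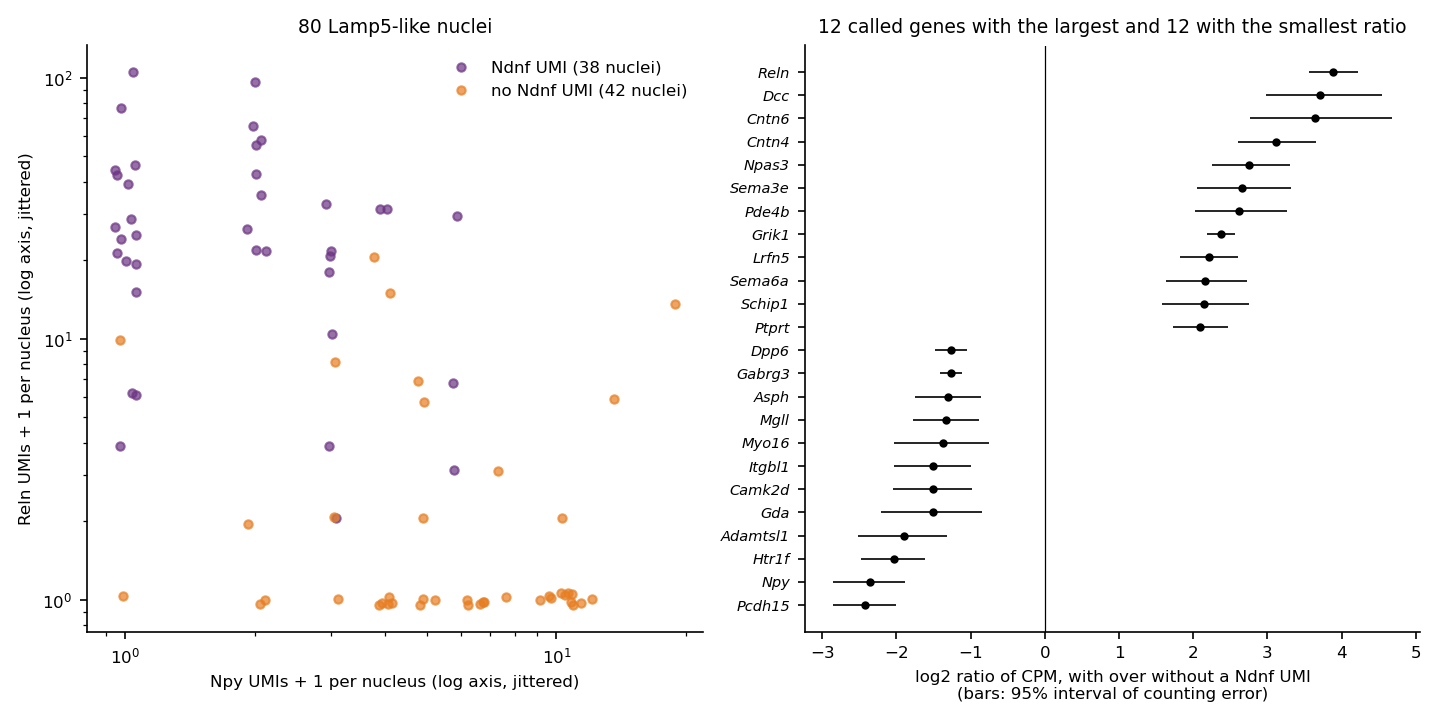
Left, Reln against Npy UMIs plus 1 in each of the 80 members (log axes, jittered), coloured by a Ndnf UMI; nuclei with Ndnf lie high on Reln and those without lie mostly at 0 Reln with more Npy. Right, log2 ratio of CPM between the 38 nuclei with and the 42 without Ndnf for the 12 called genes with the largest and the 12 with the smallest ratio, with bars for the 95% interval of counting error, Ndnf itself left out.

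By the same rule of size, 26 of 1265 testable genes (2.06%) were higher in nuclei with a Ndnf UMI and 36 (2.85%) in nuclei without, rule genes left out. The genes named here were chosen after their values were seen. Grik1, a kainate receptor subunit, was at 3699 CPM with Ndnf and 716 without, and by library the sides spanned 3236 to 4590 and 540 to 767. Dcc, a netrin receptor, was at 536 against 40.9 CPM, though seen in only 19 of 38 and 5 of 42 nuclei. Cntn4, a contactin, was at 796 against 92.1 CPM, and its call was lost with 120 members (log2 ratio 1.67) and with thinned nuclei (2.31). Npas3 was at 640 against 94.7 CPM, and all of the latter came from library 2, with 0 UMIs without Ndnf in the other 3 libraries.

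On the Npy side, Htr1f was at 156 CPM with and 637 CPM without Ndnf, a log2 ratio of -2.03 (-2.47 to -1.61), with a UMI in 17 of 38 and 41 of 42 nuclei. By library it lay between 63.6 and 387 CPM with Ndnf and between 469 and 965 without. Pcdh15, a protocadherin, was at 153 against 821 CPM, in 9 of 38 and 37 of 42 nuclei. Gabrg3, a GABA-A receptor subunit, was at 1413 against 3402 CPM, and Mgll, which degrades the endocannabinoid 2-arachidonoylglycerol, at 164 against 412 CPM. Dpp6 and Kcnip4, auxiliary subunits of A-type potassium channels, were at 700 against 1676 and 4754 against 11144 CPM, and with 120 members Kcnip4 had no call (log2 ratio -0.64).

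Several genes called against other classes had no call between members with and without a Ndnf UMI. Adarb2 was at 6042 CPM with Ndnf and 5892 without, Cacna2d1 at 2236 and 2292, Fgf13 at 4194 and 4822, Hapln1 at 200 and 246, and Prox1 at 145 and 171, none called. Htr2a was at 123 and 107 CPM, a log2 ratio of 0.20 (-0.44 to 0.84). TREmcherry was seen in 6 of 38 nuclei with Ndnf and 5 of 42 without. A division by Lhx6 could not be fitted, since no member had a UMI of it.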

How the data were processed

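The deposited values are UMI counts per gene and barcode, which the authors made with Cell Ranger 7.1.0 on mm10, per the file headers (version) and the notes on processing from the submitters (build), with the features TREmcherry and tTA added. The 4 libraries share 1 matrix, so no p-value was made. From these counts nuclei were filtered, scored and summed with Python 3.11.15 and scanpy 1.11.5 (Scrublet). A level of 0 was compared through a floor of 3 counts over the set. The members and the 25 gene lists were chosen with earlier results of these data known. Genes that chose the members and names that are predicted (Gm with digits, ending in Rik), mitochondrial or ribosomal were left out of the ranking over all genes. Named genes were up to 5 called genes with the largest and 5 with the smallest ratio of each list, the 15 largest and 15 smallest ratios among ranked genes with at least 100 UMIs counted or expected in the members, and any gene of 8 lists (Lamp5 subtype, lineage, peptide, serotonin, gap junction, nitric oxide, GABA synthesis and calcium-binding genes). Outside that rule, Vcan, Grin2b, Grm5, Grm7, Gria1, Kcnq3, Kcnq5, Nrxn3, Gabbr1, Gnaq, Plcb1, Prkce, Syt1, Snap25, Vamp2, Fos, Npas4 and the genes of the Ndnf division were chosen after their values were seen. On simulated counts the call rule found 57 of 66 genes changed 3-fold and 61 of 63 changed 4-fold against the mixed set, and called 284 of 12415 unchanged genes. Those counts were Poisson draws from the pooled mean of each gene, without variation between nuclei or a mix of cell types. They therefore do not give the error rate of the rule on these nuclei. Positions come from GENCODE M21 (GRCm38). Alternatives varied the member number, filters, thinning, weighting, UMI minimum, comparison nuclei and libraries.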

Additional observations from a re-analysis of the deposited data

How the results depend on the processing

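With 60 or 120 members, at least 1000 genes per nucleus, equally weighted nuclei, Scrublet scores above 0.25 removed, or any 1 library left out, every count of called genes stayed within 1.5 times its value in the report. A limit of 1% mitochondrial UMIs redrew the 80 highest scores, of which only 24 were members in the report, against 537 comparison nuclei. It gave 43 genes higher and 161 lower against the mixed set, 145 and 150 against Pvalb-, 66 and 84 against Sst-, and 41 and 23 against Vip-scored nuclei, 0 and 0 within the Ndnf division, and a reporter share of 2.5%. Under it the log2 ratios of Htr2c (1.016), Npas3 (0.3774), Nrxn3 (0.1768) and Tac2 (0.5827) against the mixed set and of Npas3 (-0.04853) in the Ndnf division changed sign, and 59 of 101 named ratios against the mixed set lost their call. Among the ratios that lost their call were those of Htr2a (0.3373), Gabbr2 (0.3538), Gabrb2 (0.4882) and Nrg2 (0.2701). The limit changed most of the scored nuclei and the comparison nuclei as well as the mitochondrial share. These changes cannot be told apart here, and the cause was not tested. Thinning every nucleus to 1500 UMIs, which leaves fewer UMIs per gene, gave 275 and 936 against the mixed set, 50 and 56 against Pvalb, 52 and 58 against Sst, 41 and 31 against Vip, 8 and 9 in the Ndnf division and a reporter share of 3.75%. Stricter comparison nuclei gave 284 and 577. A UMI minimum of 50, which tests more genes, gave 408 higher against Pvalb, 287 higher and 239 lower against Vip, and 50 and 64 in the Ndnf division. Requiring at least 20 UMIs counted or expected in the members gave 677 genes lower against the mixed set, in place of 1471. That requirement was chosen after seeing the data, like all alternatives for the Ndnf division. No paired analysis was possible because the matrix pools the samples and no result comes from a test. Depth limits genes with few UMIs, such as Htr1b, Gjd2 and the immediate early genes.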
